A study of Mus musculus with 12 samples.

Results

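Macrophage and complement C1q genes were followed across adult mouse cartilage in which Cre was directed at Sox9, a transcription factor of chondrocytes, or at Sox8 and Sox9 together. They were the 10 genes of a fixed list found by symbol in the deposited table, of 14712 genes in all: C1qa, C1qb, C1qc, Lyz2, Mrc1, Cd14, Cd68, Csf1r, Tyrobp and Fcer1g. RNA came from growth plate (GP) and articular cartilage (AC) cut by laser from frozen knees of mice aged 3 months. Mutants carried AcanCreERT2/+, a Cre recombinase placed at the aggrecan gene that acts after induction, so recombination was limited to cells that express Acan. Growth plate mutants were Sox9fl/fl AcanCreERT2/+ at day 7, the same genotype at day 14, and Sox8fl/fl Sox9fl/fl AcanCreERT2/+ at day 14, and growth plate controls had the same floxed alleles and days without Cre. Articular mutants and articular controls had the same 3 genotypes and days. The file headers add the reporter allele R26tdT/+ to the Sox9fl/fl columns of both mutants and controls, which the labels do not name. None of the sources used here says what the days count from. There was 1 library for each combination, which gave 12 libraries and n = 3 per group, always printed here in the order Sox9 day 7, Sox9 day 14, Sox8 Sox9 day 14. Regions are not tied to animals in the labels, so the p-values cover the spread between libraries alone, and regions that share an animal would make them too small.

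The 3 C1q genes encode the A, B and C chains of C1q, the recognition subunit of the classical complement pathway, which binds antibody complexes and dying cells and activates the proteases C1r and C1s. Tissue macrophages are a main source of C1q. Csf1r is the receptor for the growth factors CSF1 and IL34, on which macrophages and osteoclasts depend, and Cd68 is a lysosomal glycoprotein of both cell types. Tyrobp (DAP12) and Fcer1g are adaptors that carry an immunoreceptor activation motif (ITAM) and pass receptor signals to the kinase Syk. Cd14 is a co-receptor for lipopolysaccharide, Mrc1 is the mannose receptor CD206, and Lyz2 encodes the lysozyme of macrophages, monocytes and neutrophils. Healthy articular and growth plate cartilage has no blood vessels in its matrix and few leukocytes, while marrow, bone and synovium next to it hold many.

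The C1q genes lie side by side on chromosome 4 (mm10), in the order C1qb (136880129 to 136886187), C1qc (136889804 to 136893065) and C1qa (136895917 to 136898803), all on the minus strand and within 18675 bases. Promoters, from 250 bases before to 50 bases after the start, were taken from RefSeq (GRCm38.p6) for 6 of the 10 genes. Those of the other genes were not examined. Promoters are shown for C1qb and C1qc, which are neighbours, for Mrc1 and for Cd68. In controls the means of C1qb, C1qc and Mrc1 were lower in growth plate than in articular cartilage, and that of Cd68 was higher. Capitals mark matches on either strand to 3 motifs of myeloid transcription factors, none of which overlapped another match.
C1qb, chr4:136886151-136886450, minus strand: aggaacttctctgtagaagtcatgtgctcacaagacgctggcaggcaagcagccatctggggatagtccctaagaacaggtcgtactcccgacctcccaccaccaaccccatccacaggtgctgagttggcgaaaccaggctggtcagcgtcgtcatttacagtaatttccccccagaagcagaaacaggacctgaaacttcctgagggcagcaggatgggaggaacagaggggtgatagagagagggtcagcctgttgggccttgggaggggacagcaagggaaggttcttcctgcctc
C1qc, chr4:136892865-136893164, minus strand: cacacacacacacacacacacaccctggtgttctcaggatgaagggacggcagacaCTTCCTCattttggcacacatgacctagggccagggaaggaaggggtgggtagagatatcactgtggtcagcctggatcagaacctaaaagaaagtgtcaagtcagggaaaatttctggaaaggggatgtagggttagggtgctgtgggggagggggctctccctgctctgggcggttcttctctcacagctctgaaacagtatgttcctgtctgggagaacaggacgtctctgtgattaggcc
Mrc1, chr2:14229164-14229463, plus strand: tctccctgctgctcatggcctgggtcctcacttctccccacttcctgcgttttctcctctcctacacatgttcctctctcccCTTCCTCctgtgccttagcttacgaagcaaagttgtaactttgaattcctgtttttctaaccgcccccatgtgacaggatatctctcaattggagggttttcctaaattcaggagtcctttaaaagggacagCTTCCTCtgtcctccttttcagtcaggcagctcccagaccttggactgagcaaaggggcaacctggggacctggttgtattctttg
Cd68, chr11:69666121-69666420, minus strand: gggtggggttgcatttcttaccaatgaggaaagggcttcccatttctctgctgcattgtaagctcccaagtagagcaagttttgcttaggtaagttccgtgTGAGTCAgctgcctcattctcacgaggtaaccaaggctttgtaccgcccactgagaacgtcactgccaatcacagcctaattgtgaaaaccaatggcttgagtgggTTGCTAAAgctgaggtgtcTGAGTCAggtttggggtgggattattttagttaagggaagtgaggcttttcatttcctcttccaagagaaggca

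The PU.1 motif GAGGAAG matched 194 bases before the C1qc start and 168 and 36 bases before the Mrc1 start. The C/EBP motif TTNNGCAA matched 43 bases before the Cd68 start, and the AP-1 motif TGANTCA matched 149 and 24 bases before it. These letters were absent from the C1qb, Lyz2 and Fcer1g windows, and C1qa, Tyrobp, Cd14 and Csf1r are named only. Of 32851 listed promoters of 300 bases, 13.6% held the PU.1 motif, 10.8% the C/EBP motif and 7.81% the AP-1 motif, so a match to these short motifs is common and describes letters, not binding.

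Values are the authors' normalised RPKM (a read density per length of transcript), named NRPKM in the file; they are per length, their lowest listed value is 1, and their read depth is unknown. Between 1299 and 2823 genes per library stood at 1. Tissue labels fitted the markers: Prg4, the lubricin gene of the articular surface, was 9137 to 32446 in the 6 articular libraries and 3.61 to 110.8 in the 6 growth plate libraries. Sox9 was 236, 148 and 36.0 NRPKM in growth plate mutants, against 314, 335 and 308 in growth plate controls. In articular cartilage it was 304, 309 and 282 in mutants, against 408, 349 and 213 in controls. The articular library labelled Sox8 Sox9 mutant therefore had more Sox9 than its control, against its label, and tests that change without it are given both ways. All 6 mutant libraries had less Sox8 than their controls. With limma on log2(value + 1) over 14712 genes, 1580 genes passed a Benjamini-Hochberg adjusted p of 0.05 between growth plate mutants and controls (1165 higher, 415 lower). The split moved to 606 higher and 679 lower with quantile normalisation and to 726 and 741 with median ratio scaling, which lowered the median of all genes by 0.20 and by 0.18.

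In growth plate, 5 of the 10 genes rose in mutants and 0 fell: Lyz2, C1qa, Mrc1, Fcer1g and C1qb. Csf1r, Tyrobp, C1qc and Cd68 had positive log2 fold changes without passing, and Cd14 stayed at or near the lowest value in both groups. Over all genes, 7.92% passed as higher and 10.7% in either direction. The median log2 fold change was 1.52 over the 10 genes, beside 0.20 over all genes. Quantile normalisation gave the 10 genes a median of 1.33, and median ratio scaling one of 1.34. Both scalings ended the calls of C1qb (limma, adjusted p = 0.0913 and 0.0639) and Mrc1 (0.0651 and 0.052), so that Lyz2, C1qa and Fcer1g passed.

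C1qa was listed at 9.01, 11.2 and 26.3 NRPKM in growth plate mutants, against 1.10, 2.04 and 5.22 in growth plate controls. The lowest mutant lay above the highest control. Its means were 15.5 ± 9.42 in mutants and 2.79 ± 2.16 in controls (SD, n = 3 each). The log2 fold change was 2.13 ± 0.51, the error being the SE as below (limma, adjusted p = 0.0291). In these bulk samples, more cells of a type and more RNA per cell cannot be told apart, here or below.

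C1qb had 5.21, 7.52 and 23.6 NRPKM in growth plate mutants, against 1.16, 2.93 and 5.51 in growth plate controls. The day 7 mutant lay under the Sox8 Sox9 control, so the groups overlapped, although each mutant was above its own control. The log2 fold change was 1.52 ± 0.40 (limma, adjusted p = 0.0403). C1qc had 2.13, 7.95 and 20.4 NRPKM in growth plate mutants, against 1, 1.501 and 3.82 in growth plate controls. It overlapped in the same way and did not pass, at 1.55 ± 0.53 (limma, adjusted p = 0.0931). Summed over the 3 chains, C1q was 16.4, 26.7 and 70.3 NRPKM in growth plate mutants, against 3.26, 6.47 and 14.6 in growth plate controls, which did not overlap.

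Lyz2 (chromosome 10, 117277331 to 117282321) had the largest difference of the 10 genes in growth plate. It was listed at 94.2, 65.4 and 238 NRPKM in growth plate mutants, against 4.73, 16.7 and 29.8 in growth plate controls. All mutants lay above all controls, with means of 133 ± 92.6 in mutants and 17.1 ± 12.5 in controls and a log2 fold change of 2.97 ± 0.46 (limma, adjusted p = 0.00493). Neutrophils also make this lysozyme: the summed level of 13 neutrophil markers was 397 to 1478 NRPKM in growth plate mutants, against 41.5 to 64.5 in growth plate controls, and 10 of the 13 rose. Lcn2 and Ly6g were at the lowest value in all growth plate controls. The part of neutrophils in the Lyz2 result was not tested.

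Mrc1 (chromosome 2, 14229392 to 14332057) had 5.90, 6.81 and 15.4 NRPKM in growth plate mutants, against 1, 2.16 and 1.25 in growth plate controls. The groups did not overlap, and the log2 fold change was 1.99 ± 0.53 (limma, adjusted p = 0.0445). Fcer1g (chromosome 1, 171229572 to 171234365) had 24.8, 19.9 and 54.6 NRPKM in growth plate mutants, against 5.86, 8.67 and 17.9 in growth plate controls. It did not overlap either and rose by 1.53 ± 0.37 on the log2 scale (limma, adjusted p = 0.0287).

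Tyrobp (chromosome 7, 30413760 to 30417585), the partner adaptor, had 43.3, 29.2 and 96.1 NRPKM in growth plate mutants, against 12.5, 25.1 and 18.3 in growth plate controls. The groups were separate, but the Sox9 day 14 pair differed little, and the log2 fold change of 1.42 ± 0.53 did not pass (limma, adjusted p = 0.124). Csf1r (chromosome 18, 61100598 to 61132149) had 83.02, 55.9 and 127 NRPKM in growth plate mutants, against 26.5, 32.3 and 34.8 in growth plate controls. It too was higher in every mutant than in any control, and its log2 fold change of 1.41 ± 0.42 had an adjusted p of 0.0579 (limma). Cd68 (chromosome 11, 69664213 to 69666153) had 60.4, 35.1 and 180.0 NRPKM in growth plate mutants, against 26.8, 30.8 and 59.1 in growth plate controls. Its groups overlapped, at 0.97 ± 0.39 (limma, adjusted p = 0.143).

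Cd14 (chromosome 18, 36725067 to 36726798) was the member with no consistent direction in growth plate. It stood at 1.96, 1 and 1.61 NRPKM in growth plate mutants, against 1, 1.53 and 1.46 in growth plate controls, a log2 fold change of 0.10 ± 0.42 (limma, adjusted p = 0.935) that turned to −0.10 with quantile normalisation and −0.03 with median ratio scaling. The other 9 genes were higher in the mutant in all 3 growth plate pairs. In 6 of the 10 genes every mutant lay above every control, where 19.0% of all genes did so and 4.96% lay lower in every mutant.

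**Figure D1:**
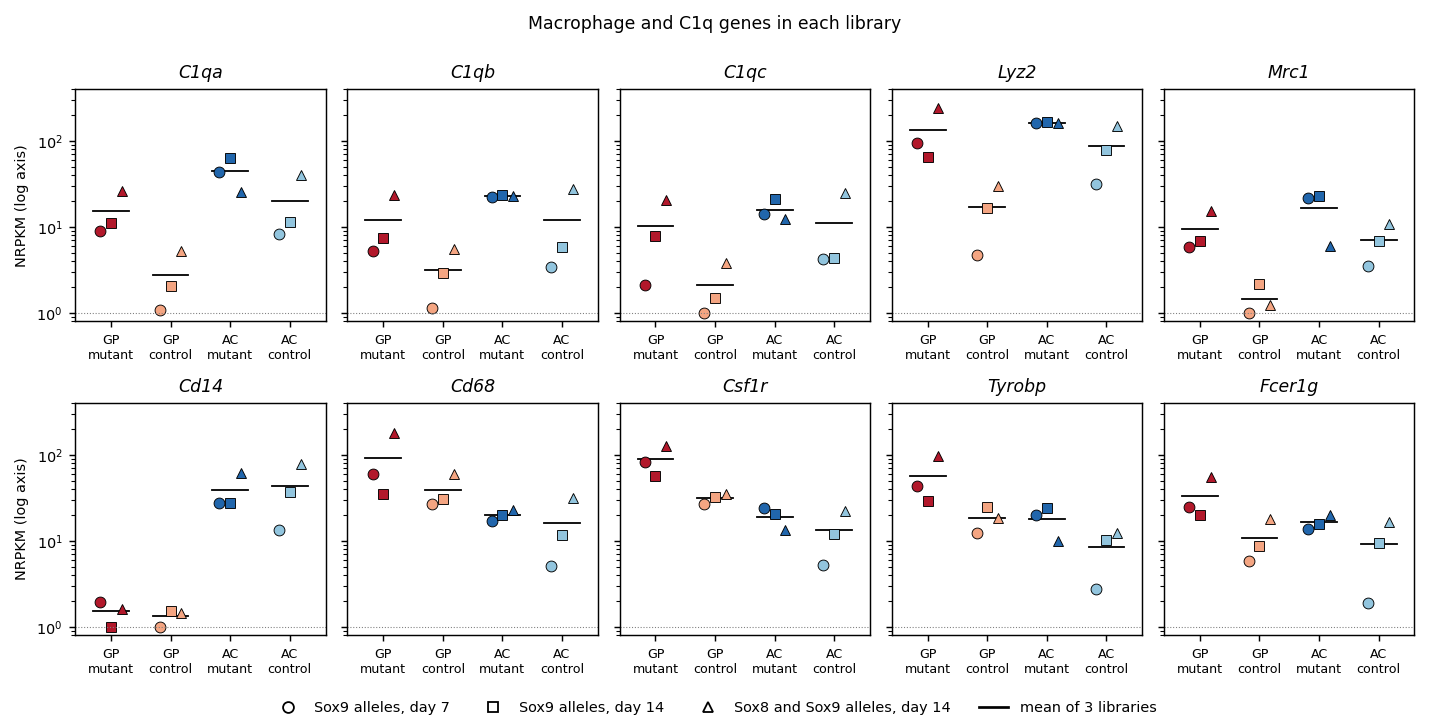
NRPKM (log axis) of each of the 10 genes in growth plate (GP) mutants and controls and articular (AC) mutants and controls; circles, squares and triangles are libraries of the Sox9 sets at day 7 and day 14 and of the Sox8 Sox9 set, bars are means of 3 libraries and the dotted line is the lowest listed value, 1. Lyz2 was 65.4 to 238 in growth plate mutants and 4.73 to 29.8 in growth plate controls, while Cd14 was at most 1.96 in any growth plate library and at least 13.4 in any articular library.

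The calls in growth plate rested on few libraries. Calls over all genes moved as well, from 658 to 1927 in the 12 fits without 1 library, beside 1580 with all libraries. Leaving out any growth plate library except the Sox9 day 14 mutant left 1 member, Lyz2, with adjusted p from 0.0161 to 0.0303 (limma). Without the growth plate Sox9 day 14 mutant 7 members passed, among them Csf1r, Cd68 and Tyrobp, and without the articular library labelled Sox8 Sox9 mutant 7 passed, among them C1qc (adjusted p = 0.0183) and Csf1r (adjusted p = 0.0266). With matched pairs as the replicate block, Lyz2 and Fcer1g passed, while C1qa (limma, adjusted p = 0.0562), C1qb (0.0847) and Mrc1 (0.0789) did not. With no replicate block Lyz2 and Mrc1 passed, and C1qa was at 0.0607. From the 6 growth plate libraries alone 0 of the 10 and 0 of all genes passed. The estimates did not change in that fit: C1qa was at 2.13 ± 0.16 and Fcer1g at 1.53 ± 0.22. Leaving out an articular library likewise moved the shared error and not the growth plate estimates. Without the articular library labelled Sox8 Sox9 mutant, C1qc was at 1.55 ± 0.32.

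In articular cartilage, 0 of the 10 genes passed between mutants and controls (limma), and 4, C1qa, C1qb, Lyz2 and Fcer1g, had an unadjusted p under 0.05, as 12.3% of all genes did; over all genes 0.353% passed (23 higher and 29 lower, 11 and 36 with quantile normalisation, and 12 and 34 with median ratio scaling). In the Sox9 sets, all of the 10 genes except Cd14 were above their control at both days. The median log2 fold change was 1.07 over the 10 genes, beside 0.13 over all genes. By pair, the median over the 10 genes was 2.29 at Sox9 day 7, 1.10 at Sox9 day 14 and −0.39 in the Sox8 Sox9 pair, whose mutant library had more Sox9 than its control.

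C1qa had 43.5, 63.4 and 25.7 NRPKM in articular mutants, against 8.21, 11.5 and 40.2 in articular controls. The groups overlapped because the Sox8 Sox9 pair ran the other way, and the log2 fold change was 1.34 ± 0.51 (limma, adjusted p = 0.333). C1qb was even across articular mutants, at 22.4, 23.6 and 23.2 NRPKM, against 3.44, 5.81 and 27.3 in articular controls. C1qc had 14.3, 21.001 and 12.4 NRPKM in articular mutants, against 4.27, 4.35 and 24.5 in articular controls. For all 3 chains the highest articular control was the Sox8 Sox9 library.

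Lyz2 was the 1 member whose articular groups did not overlap, where 11.4% of all genes were higher and 3.09% lower in every mutant. It had 159.8, 167 and 164 NRPKM in articular mutants, against 31.3, 79.4 and 149.7 in articular controls, a log2 fold change of 1.17 ± 0.46 (limma, adjusted p = 0.342). Mrc1 had 21.7, 22.8 and 5.98 NRPKM in articular mutants, against 3.53, 6.93 and 10.9 in articular controls. Csf1r had 23.8, 20.3 and 13.4 NRPKM in articular mutants, against 5.28, 12.03 and 22.5 in articular controls. Tyrobp had 19.8, 23.8 and 9.87 NRPKM in articular mutants, against 2.74, 10.3 and 12.3 in articular controls. These 3 genes shared the order of C1qa: mutants above controls in both Sox9 pairs and below in the Sox8 Sox9 pair.

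Fcer1g, which was higher in the articular mutant in all 3 pairs, had 13.7, 15.5 and 20.2 NRPKM in articular mutants, against 1.88, 9.45 and 16.5 in articular controls. Cd68 had 17.1, 20.1 and 23.1 NRPKM in articular mutants, against 5.11, 11.8 and 31.4 in articular controls. Cd14 had 27.3, 27.7 and 60.9 NRPKM in articular mutants, against 13.4, 37.3 and 78.5 in articular controls, higher in the mutant at day 7 alone. The articular Sox8 Sox9 control held the highest value of the articular controls for all 10 genes, and the Sox9 day 7 control the lowest for all 10. Without the library labelled Sox8 Sox9 mutant, C1qa passed in articular cartilage, at 2.18 ± 0.21 (limma, adjusted p = 0.0106), and the other 9 did not. Values without it were 1.93 for C1qb, 1.63 for C1qc, 1.70 for Lyz2, 1.06 for Cd68, 1.17 for Csf1r, 1.85 for Mrc1, 1.74 for Tyrobp and 1.41 for Fcer1g, and −0.085 for Cd14. When the articular Sox8 Sox9 control was left out instead, C1qa was at 1.80 ± 0.51 (limma, adjusted p = 0.215) and no member passed.

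**Figure D2:**
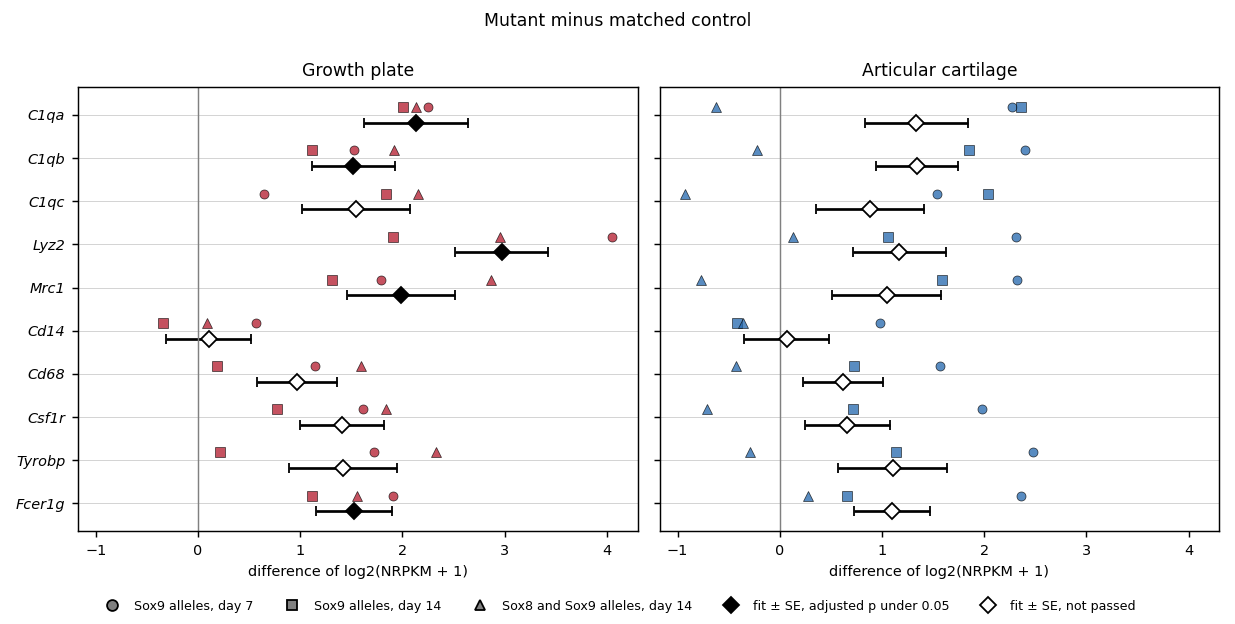
Difference of log2(NRPKM + 1), mutant minus matched control, for the 10 genes in growth plate (left) and articular cartilage (right). Small symbols are the 3 pairs and diamonds the limma estimate ± SE, filled where the adjusted p was under 0.05; 5 diamonds are filled in growth plate and 0 in articular cartilage, where the Sox8 Sox9 pair (triangles) lies below 0 for 8 of 10 genes.

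The test of whether the mutant effect differed between growth plate and articular cartilage passed for 0 of the 10 genes (limma), with 1 of 10 at an unadjusted p under 0.05, where 10.7% of all genes were, and for 0.184% of all genes (0.0476% higher and 0.136% lower). That gene was Lyz2, with a difference of 1.80 ± 0.44 (limma, adjusted p = 0.171), or 1.27 ± 0.27 without the library labelled Sox8 Sox9 mutant (adjusted p = 0.213). The other 9 differences lay between 0.04 and 0.94. The calls in growth plate and their absence in articular cartilage thus do not show that the tissues differed in the mutant effect. Without the library labelled Sox8 Sox9 mutant 0 members passed as well, and 5 of the differences turned negative.

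The 10 genes divided by tissue. In controls, Cd68 and Csf1r were higher in growth plate than in articular cartilage, and C1qa, Lyz2 and Cd14 were lower (limma, adjusted p from 0.000479 to 0.0473). Over all genes 12.9% passed, 4.26% as higher and 8.63% as lower in growth plate. Among the 10 genes, Csf1r and Tyrobp were higher and C1qa, C1qc, Lyz2, Cd14 and Mrc1 lower in every growth plate control than in any articular control, where 9.31% and 19.0% of all genes were. The split over all genes was 627 higher and 1269 lower as deposited, 899 and 1003 with quantile normalisation, and 913 and 1059 with median ratio scaling; the 5 members passed in the same directions under both.

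Cd14 differed most. Its growth plate values in mutants and controls, at most 1.96 NRPKM, were all below its articular values, at least 13.4 NRPKM. The log2 difference, growth plate minus articular, was −3.89 ± 0.39 in mutants (limma, adjusted p = 0.000672) and −3.93 ± 0.39 in controls (adjusted p = 0.000479). With growth plate at or near the lowest listed value, the size depended on the value added before the logarithm: the difference in controls was −2.67 with 5 added and −4.60 with 0.1 added. Lyz2 was lower in growth plate by 2.32 ± 0.31 on the log2 scale in controls (limma, adjusted p = 0.0018), while in mutants the difference was −0.52 ± 0.31 (adjusted p = 0.378).

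C1qa was lower in growth plate than in articular cartilage, by −2.30 ± 0.43 in controls (limma, adjusted p = 0.0111), and −1.51 ± 0.43 in mutants did not pass (adjusted p = 0.0676). The Sox8 Sox9 mutants were nearly level, at 26.3 NRPKM in growth plate and 25.7 in the library labelled as the articular mutant, whereas the Sox9 mutants were 9.01 and 11.2 in growth plate, against 43.5 and 63.4 in articular cartilage. C1qb and C1qc ran in the same direction in controls without passing, at −1.32 ± 0.39 (limma, adjusted p = 0.0613) and −1.63 ± 0.51 (adjusted p = 0.0842). Mrc1 was at −1.64 ± 0.56 in controls (limma, adjusted p = 0.110), with every growth plate control below every articular control.

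Csf1r ran the other way, with a log2 difference of 2.11 ± 0.37 in mutants (limma, adjusted p = 0.00874) and 1.36 ± 0.37 in controls (adjusted p = 0.0473). Every growth plate library of either group was above every articular library of that group. Cd68 was higher in growth plate by 1.81 ± 0.39 in mutants (limma, adjusted p = 0.0213) and by 1.46 ± 0.39 in controls (adjusted p = 0.0437). Tyrobp had differences of 1.51 ± 0.50 in mutants and 1.20 ± 0.50 in controls, also with no overlap of the tissues in either group, and passed in neither (limma, adjusted p = 0.117 and 0.182); without that library labelled Sox8 Sox9 mutant, the difference in mutants was 0.69 ± 0.33. Fcer1g lay close between tissues in controls, at 0.42 ± 0.29 (limma, adjusted p = 0.423), and at 0.85 ± 0.29 in mutants (adjusted p = 0.116).

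In mutants, Cd68 and Csf1r were higher in growth plate and Cd14 lower, 3 of 10 genes, where 4.3% of all genes passed as higher and 5.91% as lower (10.2% together). Without the articular library labelled Sox8 Sox9 mutant 7 of 10 passed in mutants: C1qa (−2.27), C1qb (−1.72), C1qc (−1.79), Lyz2 (−1.05), Mrc1 (−1.66) and Cd14 (−3.55) were lower in growth plate, and Csf1r (1.59) was higher, while Cd68 no longer passed (limma, adjusted p = 0.0833); 7 also passed without the growth plate library of that set. Without a Sox9 day 7 mutant library 2 passed, Cd14 and Csf1r. In controls 9 passed without either Sox8 Sox9 mutant library, in a fit whose error both groups share. Over all genes, fits without 1 library gave 894 to 2068 calls in controls, beside 1896 with all libraries. In mutants they gave 796 to 1362, beside 1501. Leaving out a control library of the Sox9 day 7 or Sox8 Sox9 set left 2 in controls, Lyz2 and Cd14, and leaving out a Sox9 day 14 control or a Sox9 day 7 mutant left these and C1qa.

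**Figure D3:**
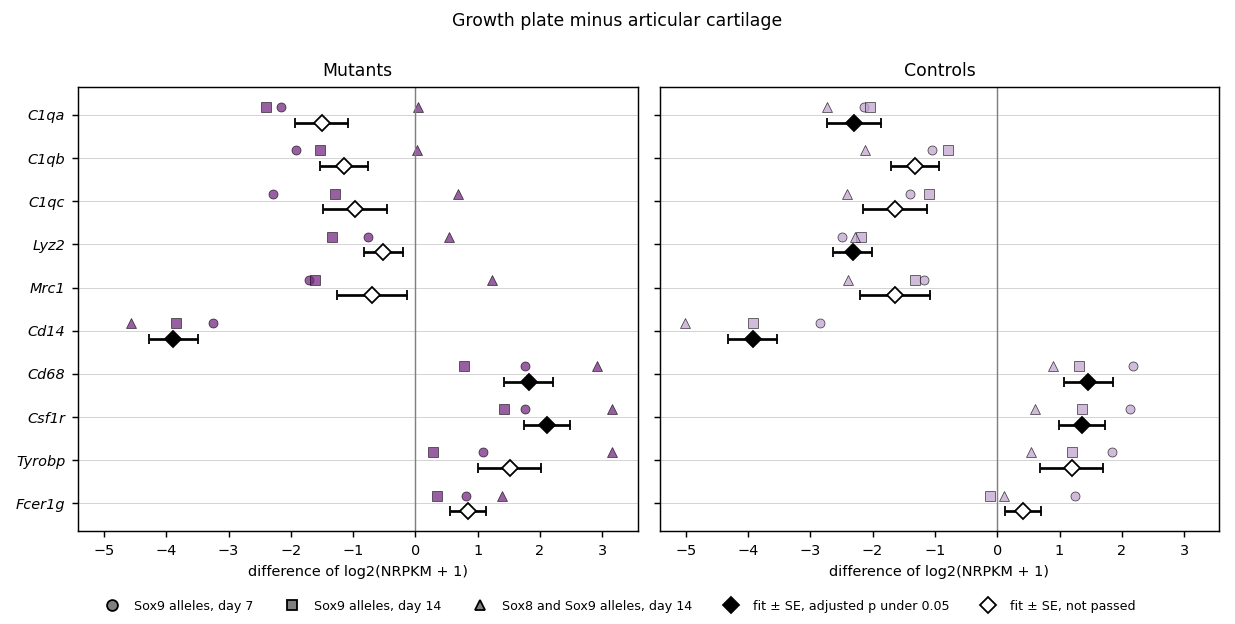
Difference of log2(NRPKM + 1), growth plate minus articular cartilage, within each genotype and day, for mutants (left) and controls (right). Small symbols are the 3 sets and diamonds the limma estimate ± SE, filled where the adjusted p was under 0.05; Cd14 lies near −3.9 on both sides and Csf1r above 0 in every set, while the triangles of C1qa, C1qb, C1qc and Mrc1 stand at or above 0 in mutants and below 0 in controls.

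The genes thus kept different proportions in the 2 tissues. Csf1r was 4.83 to 24.1 times the level of C1qa in the 6 growth plate libraries and 0.321 to 1.04 times it in the 6 articular libraries. Cd68 was 3.13 to 24.4 times C1qa in growth plate and 0.317 to 1.02 times in articular cartilage, and Csf1r was 8.21 to 27.8 times Mrc1 in growth plate and 0.892 to 2.23 times in articular cartilage. None of these 3 ratios overlapped between tissues. Within growth plate the ratio of Csf1r to C1qa was 4.83 to 9.21 in mutants and 6.65 to 24.1 in controls, which overlapped. The other ratios did not overlap within growth plate: Cd68 to C1qa was 3.13 to 6.84 in mutants and 11.3 to 24.4 in controls, and Csf1r to Mrc1 was 8.21 to 14.1 in mutants and 14.98 to 27.8 in controls. In growth plate controls Mrc1 stood at 1 to 2.16 NRPKM and C1qa at 1.10 to 5.22, where 1 is the lowest listed value. The size of the control ratios is therefore uncertain. The ratio of Cd68 to Csf1r was 0.628 to 1.70 in growth plate and 0.718 to 1.73 in articular cartilage. It was 1.40 to 1.73 in the 4 Sox8 Sox9 libraries and at most 1.01 in the 8 Sox9 libraries.

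The same division showed in correlations of log2 values across the libraries, given as a description because libraries of a tissue share its level. C1qa had Pearson r of 0.95 with C1qb, 0.94 with C1qc, 0.93 with Lyz2 and 0.93 with Mrc1 over 12 libraries. With Csf1r it was −0.03 over 12 libraries, but 0.93 within the 6 growth plate and 0.90 within the 6 articular libraries. With Cd68 it was 0.00 over all, 0.83 within growth plate and 0.81 within articular cartilage. Csf1r had r of 0.95 with Tyrobp and 0.93 with Cd68 over 12 libraries. Cd14 had its highest value with C1qa (0.69) and was at −0.64 with Csf1r.

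**Figure D4:**
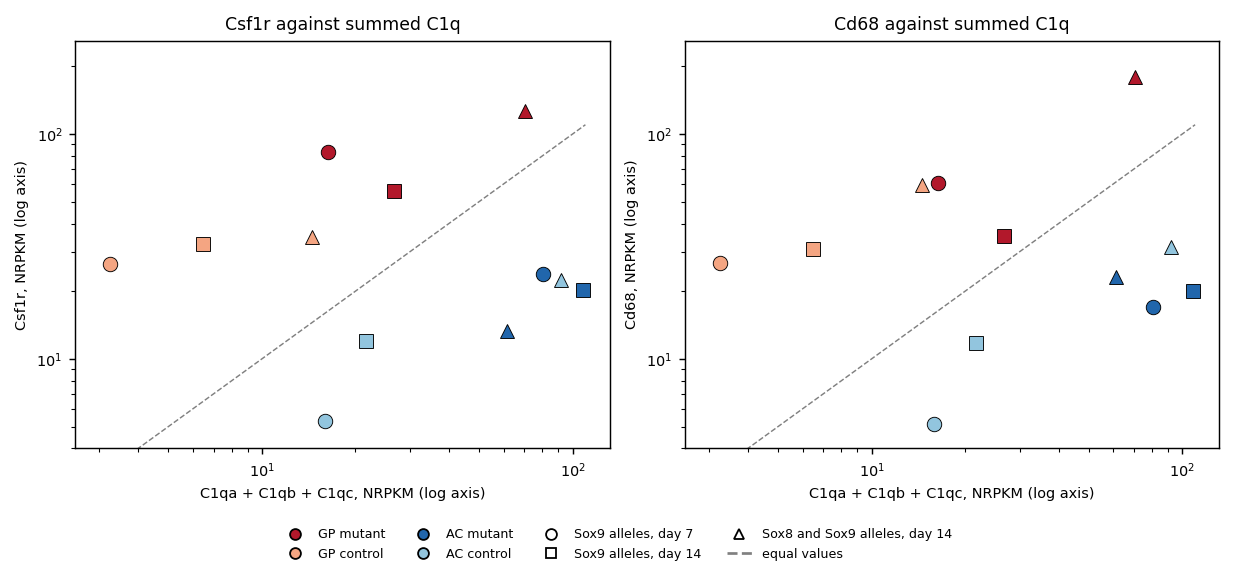
Csf1r (left) and Cd68 (right) against the sum of C1qa, C1qb and C1qc, all in NRPKM on log axes, 1 point per library coloured by group; the dashed line marks equal values. Growth plate libraries lie above the line and articular libraries below it in both plots: Csf1r was 26.5 to 127 in growth plate and 5.28 to 23.8 in articular cartilage.

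NRPKM is per length, but how it was normalised further is not given, so levels of different genes are compared with that limit. Lyz2 led in growth plate mutants (mean 133), followed by Cd68 (91.8), Csf1r (88.7), Tyrobp (56.2), Fcer1g (33.1), C1qa (15.5), C1qb (12.1), C1qc (10.2), Mrc1 (9.36) and Cd14 (1.52). In growth plate controls Cd68 (38.9) and Csf1r (31.2) led, and Tyrobp (18.6) and Lyz2 (17.1) were next. In growth plate mutants the gaps between Cd68 and Csf1r and between the C1q chains were smaller than the SD of either gene. The gap between Fcer1g and C1qa, and that between Mrc1 and Cd14, was larger than the SD of the lower gene. In growth plate controls Cd68 lay above Csf1r by more than the SD of Csf1r (4.27) and less than that of Cd68 (17.6), and Csf1r lay above Tyrobp by more than the SD of either. In articular cartilage Lyz2 led in mutants (163) and in controls (86.8). The next levels were C1qa (44.2) and Cd14 (38.6) in articular mutants and Cd14 (43.1) and C1qa (19.97) in articular controls, and Csf1r came to 19.2 in mutants and 13.3 in controls.

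Days and genotypes had 1 library per tissue and group and were not tested. The log2 ratio of the growth plate mutant to its control was lower at Sox9 day 14 than at day 7 for 9 of the 10 genes, with a median difference of −0.82 beside −0.29 over all genes; C1qc was the exception, at 1.19. In articular cartilage it was lower at day 14 for 8 of 10, with a median of −1.05 beside −0.05. In both tissues the Sox9 day 7 control held the lowest control value for all 10 genes. That growth plate control stood at the lowest listed value, 1, for C1qc, Mrc1 and Cd14. The part of the controls in these day differences was not tested. Between genotypes at day 14, the growth plate ratio was higher in the Sox8 Sox9 pair for all 10 genes, by a median of 0.93 beside 0.18 over all genes. The Sox8 Sox9 growth plate mutant, where Sox9 was lowest, held the highest growth plate mutant value of 9 genes. In articular cartilage the difference between genotypes was below 0 for 9 of 10 genes, with a median of −1.42 beside 0.00. It rests on the pair whose mutant library had more Sox9 than its control.

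Of 17 complement partners and regulators, 4 rose in growth plate mutants, among them C3, Serping1 and Cd59a, and 0 fell. C3, the central complement protein cleaved by all pathways, was at 10.5, 7.36 and 19.2 NRPKM in growth plate mutants and at the lowest value, 1, in all growth plate controls (limma, adjusted p = 0.00403). Serping1, the C1 inhibitor that blocks C1r and C1s, had 5.79, 10.4 and 27.2 NRPKM in growth plate mutants, against 1, 1 and 5.29 in growth plate controls, a log2 fold change of 2.14 ± 0.44 (limma, adjusted p = 0.0166). The membrane inhibitor Cd59a rose by 1.60 ± 0.34 on the log2 scale (limma, adjusted p = 0.017). The C1r gene C1ra had 10.7, 10.5 and 9.30 NRPKM in growth plate mutants, against 3.04, 9.92 and 6.91 in growth plate controls, and did not pass (limma, adjusted p = 0.357). C1s (C1s1) was at most 1.77 in any growth plate library, and C4b, the next substrate of the pathway, had 51.6, 27.7 and 20.8 in growth plate mutants, against 6.31, 19.4 and 60.9 in growth plate controls (adjusted p = 0.638). The list's median was 0.59 beside 0.20 for all genes, and 0 of 17 passed between articular mutants and controls; without the library labelled Sox8 Sox9 mutant C1s passed there (1.80 ± 0.23, limma, adjusted p = 0.0263). Between tissues, 2 were higher and 6 lower in growth plate than in articular mutants, and 0 and 4 in controls, C3, C4b and Serping1 being lower in both. Without the library labelled Sox8 Sox9 mutant, 1 was higher and 4 lower in mutants, and C4b no longer passed there (limma, adjusted p = 0.124).

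Of 16 other macrophage genes, 4 rose in growth plate mutants and 0 fell, with a list median of 0.69. Pf4, a chemokine of platelets and macrophages, rose by 2.82 ± 0.36 with 11.96, 33.6 and 18.98 NRPKM in growth plate mutants, against 1, 3.36 and 1.90 in growth plate controls, Mpeg1, a pore-forming protein of phagocytes, by 1.93 ± 0.44, the integrin gene Itgam by 1.77 ± 0.32, and the fractalkine receptor Cx3cr1 by 1.23 ± 0.26 (limma, adjusted p from 0.00206 to 0.0224). The F4/80 gene Emr1 (Adgre1) had 1.80, 7.46 and 5.46 NRPKM in growth plate mutants, against 1, 1.46 and 1 in growth plate controls, at 1.32 ± 0.39 (limma, adjusted p = 0.0549). The haemoglobin scavenger receptor Cd163 had 1.74, 2.41 and 3.40 in growth plate mutants and 1 in all growth plate controls (adjusted p = 0.382). In growth plate controls Cd163, Lyve1, Vsig4, Aif1 and Fcrls were all at the lowest value.

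Between tissues most of these genes did not pass: 1 was higher and 4 lower in growth plate than in articular mutants, and 1 and 3 of 16 in controls. Over all genes 4.3% passed as higher and 5.91% as lower in mutants, and 4.26% and 8.63% in controls. Lyve1, a hyaluronan receptor that lymphatic vessels also make, was at most 1.81 NRPKM in growth plate, while in articular cartilage it had 22.2, 27.2 and 11.9 in mutants and 3.99, 3.77 and 18.8 in controls. Growth plate minus articular, it was −3.12 ± 0.44 in mutants and −1.96 ± 0.44 in controls (limma, adjusted p = 0.00309 and 0.0234), and −3.59 ± 0.49 in mutants without the library labelled Sox8 Sox9 mutant (adjusted p = 0.00725). Vsig4, a complement receptor of resident macrophages, was at most 1.001 NRPKM in growth plate, while articular mutants had 7.35, 18.2 and 9.01. The choice of Lyve1 and Vsig4 was made with their values in view.

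Of 10 myeloid transcription factor genes, Cebpb and Cebpa rose in growth plate mutants, by 1.42 ± 0.24 and 1.38 ± 0.25 (limma, adjusted p = 0.00633 and 0.0084), and 8 did not pass. Sfpi1, the PU.1 gene (Spi1), had 21.9, 13.6 and 34.0 NRPKM in growth plate mutants, against 6.47, 7.12 and 7.53 in growth plate controls. Its groups were separate, and its log2 fold change of 1.5 ± 0.43 did not pass (limma, adjusted p = 0.0515). It was higher in growth plate than in articular mutants, by 1.65 ± 0.34 (adjusted p = 0.0175), but without the library labelled Sox8 Sox9 mutant it did not pass (1.39 ± 0.42, adjusted p = 0.103).

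Of 10 genes of CSF1 and IL34 signalling, Csf2rb and Csf2ra, chains of the GM-CSF receptor, rose in growth plate mutants (1.65 ± 0.37 and 0.79 ± 0.23), and 8 did not pass. Without the library labelled Sox8 Sox9 mutant Csf2ra was at an adjusted p of 0.0662 (limma). The ligand gene Csf1 had 26.2, 10.5 and 29.2 NRPKM in growth plate mutants, against 4.31, 7.48 and 8.23 in growth plate controls, with no overlap, at 1.5 ± 0.53 (limma, adjusted p = 0.105). In articular cartilage Csf1 had 12.1, 1 and 9.13 in mutants, against 4.10, 5.38 and 10.2 in controls. It was higher in growth plate than in articular mutants, by 1.72 ± 0.28 (adjusted p = 0.00483), which rests in part on the articular value of 1, and by 1.79 ± 0.36 without the library labelled Sox8 Sox9 mutant (adjusted p = 0.0286). The second ligand gene, Il34, was at most 3.65 in any library.

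Of 15 receptors and kinases that act with Tyrobp and Fcer1g, 6 rose in growth plate mutants and 0 fell, with a list median of 1.02. Among them were the exchange factor Vav1 (1.65 ± 0.33), the kinase Syk (1.54 ± 0.36), the inhibitory receptor Sirpa (1.54 ± 0.24), the kinase Lyn (1.20 ± 0.31), and the phospholipase Plcg2 (0.99 ± 0.26). Syk, onto which both adaptors converge, had 10.5, 5.89 and 12.4 NRPKM in growth plate mutants, against 1.75, 2.68 and 3.22 in growth plate controls. The Fc receptor gene Fcgr3 had 5.19, 1.49 and 9.46 in growth plate mutants, against 1, 1 and 1.12 in growth plate controls, and did not pass (limma, adjusted p = 0.0739). Lyn, Plcg2 and Fcgr3 were chosen after their values were seen.

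Around Cd14, 3 of 13 genes of the TLR4 pathway rose in growth plate mutants. They were the inhibitor Nfkbia (0.98 ± 0.16), the kinase family member Irak3 (0.95 ± 0.23) and the kinase gene Irak4 (0.72 ± 0.18). Tlr4, the receptor that Cd14 assists, had 2.65, 2.33 and 3.68 NRPKM in growth plate mutants, against 1.24, 1.76 and 1.13 in growth plate controls, at 0.70 ± 0.21 (limma, adjusted p = 0.0617). In articular cartilage it had 11.5, 17.8 and 11.7 in mutants, against 11.6, 14.7 and 10.3 in controls. Like Cd14, it was lower in growth plate, by −1.90 ± 0.22 in mutants and −2.47 ± 0.22 in controls (limma, adjusted p = 0.00106 and 0.00025), and −2.14 ± 0.24 in mutants without the library labelled Sox8 Sox9 mutant (adjusted p = 0.0035). The pathway had 0 higher and 4 lower in growth plate than in articular mutants, and 0 and 5 in controls.

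Of 19 lysosome and phagocytosis genes, 7 rose in growth plate mutants and 0 fell (median 0.83), led by Ncf4 (2.13 ± 0.45), Cybb (1.89 ± 0.39) and Ncf1 (1.81 ± 0.32), parts of the phagocyte NADPH oxidase, and by the protease gene Ctss (1.86 ± 0.44). Ctss had 61.0, 86.7 and 28.8 NRPKM in articular mutants, against 14.4, 29.1 and 36.1 in articular controls, the order that C1qa had, and like C1qa it passed in articular cartilage without the library labelled Sox8 Sox9 mutant (1.80 ± 0.23, limma, adjusted p = 0.0263). Of 12 scavenger and endocytic receptors, Mrc2, a collagen receptor related to Mrc1, rose by 1.35 ± 0.20 and Scarb1, the HDL receptor, was lower by −1.12 ± 0.18. Stab1 rose as well without the library labelled Sox8 Sox9 mutant. Among all genes 7.92% passed as higher and 2.82% as lower in growth plate mutants, so 1 of 12 receptors as higher is near the share of all genes. Of 6 class II antigen presentation genes, H2-Ab1, H2-Eb1 and H2-Aa rose (1.10 to 1.15) and H2-DMb1 fell (−1.23 ± 0.27). Of 5 inflammatory genes, 0 rose and the prostaglandin synthase gene Ptgs2 fell (−1.10 ± 0.24). Of 12 monocyte and recruitment genes, Ly6c1 (2.08 ± 0.41) and Ccr1 (1.34 ± 0.25) rose and F13a1 (−1.96 ± 0.41) fell in growth plate, and Cx3cl1, the fractalkine gene, rose in articular mutants (2.32 ± 0.22, limma, adjusted p = 0.00259), with 76.9, 44.8 and 42.0 NRPKM, against 13.3, 10.9 and 6.27 in articular controls. Without the library labelled Sox8 Sox9 mutant it rose by 2.37 ± 0.27 (adjusted p = 0.0187). Cx3cl1 was chosen after its values were seen.

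Markers of some other cells also rose in growth plate mutants. The summed level of 10 pan-leukocyte genes was 110 to 274 NRPKM in growth plate mutants, against 42.7 to 75.9 in growth plate controls, and 4 rose: Coro1a, Ptprc, Arhgdib and Itgb2. Ptprc (CD45), the defining leukocyte gene, rose by 1.79 ± 0.30 (limma, adjusted p = 0.00675). In articular cartilage the sum was 77.9 to 126 in mutants and 24.9 to 98.5 in controls, with 0 of 10 passing. Neutrophil markers, given above for growth plate, summed to 265 to 1097 in articular mutants and 117 to 1168 in articular controls. The articular control with the most neutrophil signal (Sox9 day 14, 1168) was not the one with the most C1q (Sox8 Sox9, 92.03, where neutrophil markers summed to 344). In growth plate the Sox8 Sox9 mutant had the most of both, at 1478 and 70.3. The relation of C1q to neutrophil signal was not tested.

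Osteoclast markers, which share Csf1r and Cd68 with macrophages, were abundant in growth plate. The sum of 13 was 1450 to 3687 NRPKM in growth plate mutants, against 1146 to 1524 in growth plate controls, and 141 to 225 in articular mutants, against 85.9 to 338 in articular controls. Between growth plate mutants and controls Tcirg1 (1.34 ± 0.20), Itgb3 (1.28 ± 0.34), Tnfrsf11a (1.22 ± 0.25) and Clcn7 (1.07 ± 0.22) rose and 9 did not pass. The phosphatase gene Acp5 had 709, 405 and 1288 NRPKM in growth plate mutants, against 315, 434 and 576 in growth plate controls. The collagen protease gene Ctsk had 385, 521 and 1100 in growth plate mutants, against 254, 303 and 219 in growth plate controls, and neither passed (limma, adjusted p = 0.515 and 0.0789). Between tissues 10 of 13 were higher in growth plate than in articular mutants and 9 of 13 in controls. The part of osteoclasts in the levels of Csf1r, Cd68 and Tyrobp was not tested.

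Over all genes 7.92% passed as higher in growth plate mutants. There 5 of 10 bone and marrow stroma markers, 3 of 9 synovium and fibroblast markers, 2 of 9 endothelial, 2 of 7 B cell and 1 of 10 erythroid markers also rose, and 0 of these fell, the erythroid share being near that of all genes. Without the articular library labelled Sox8 Sox9 mutant, 5 synovium and fibroblast, 4 B cell and 2 erythroid markers rose. Of 4 dendritic, 5 T and NK cell genes and 1 mast cell and basophil gene, Prss34, 0 passed; the other listed mast cell genes were not analysed here. Of 17 chondrocyte markers 14 fell and 0 rose, and of 6 growth plate markers 4 fell. The sum of the bone and stroma markers was 17187 to 23097 NRPKM in growth plate mutants, against 3114 to 9246 in growth plate controls. The part of bone, marrow or synovial tissue in the captured regions was not tested.

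**Figure D5:**
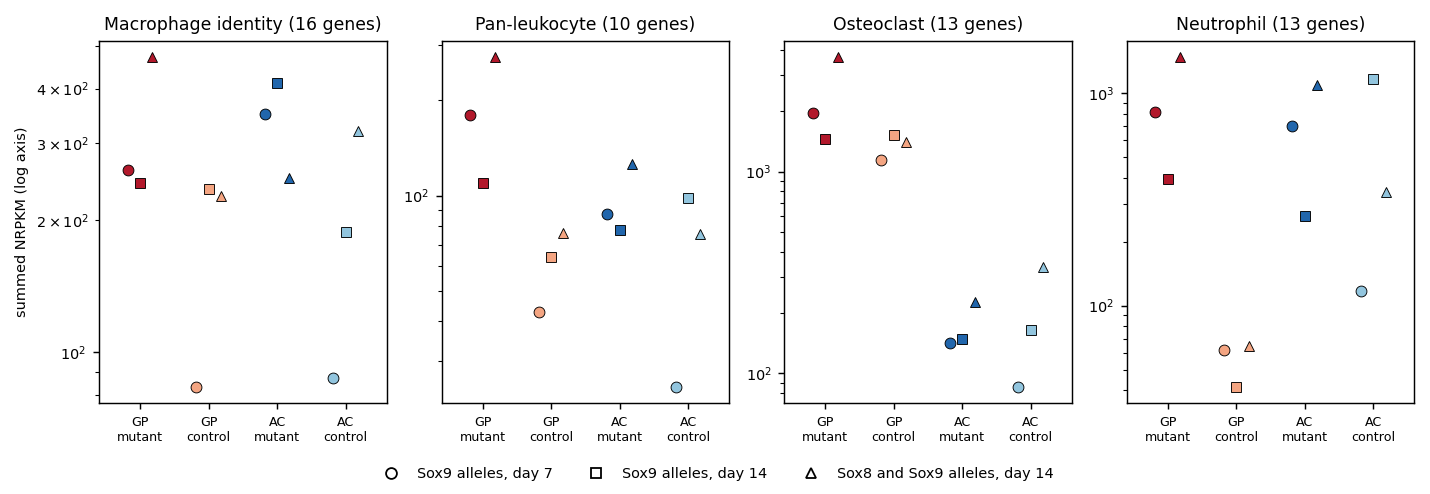
Summed NRPKM (log axis, each panel with its own range) of macrophage identity, pan-leukocyte, osteoclast and neutrophil gene lists per library; symbols stand for the sets as in the plot of single genes. Osteoclast sums are 1146 to 3687 in growth plate and 85.9 to 338 in articular cartilage, and neutrophil sums are 397 to 1478 in growth plate mutants and 41.5 to 64.5 in growth plate controls.

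The genes outside the list whose log2 values followed the mean of the 10 most closely over 12 libraries, among genes with a mean of at least 10, were Rap1b (Pearson r = 0.95), Lgals1 (0.95), Sepp1 (0.94), Pdgfra (0.93), Ist1 (0.93), Tlk1 (0.93), Asap1 (0.93) and Flna (0.92). Pdgfra is a receptor of fibroblasts and other mesenchymal cells, Lgals1 encodes galectin-1, and Sepp1 encodes selenoprotein P. Closest to the mean of the 3 C1q genes were Serping1 (0.96), Ctsl (0.95), Rgs5 (0.95), Adam9 (0.95) and Rnase4 (0.94). Serping1, the inhibitor of the protease complex that C1q forms with C1r and C1s, had 56.8, 63.8 and 70.3 NRPKM in articular mutants. Articular controls had 15.1, 9.91 and 90.1. It was lower in growth plate controls than in articular controls (−3.10 ± 0.35, limma, adjusted p = 0.000947). These genes were picked by their likeness to the members in the same 12 libraries. A shared tissue difference therefore largely follows from the selection and is no separate support.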

How the data were processed

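Growth plate and articular regions were captured by laser from frozen knee sections and sequenced as low-input stranded total RNA libraries, per the labels' protocols. The authors deposited 1 table in RPKM that they had normalised further (NRPKM per the file headers); none of the sources used here gives the method, aligner, counting tool or use of strand. The submitters' processing notes name the build mm10. No value lies below 1, and depth is unknown.

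The 10 genes, the lists of related genes and the rule for named genes were chosen with earlier results of these data known. List genes named in the report are the defining genes of a list and up to 4 passing genes with the largest growth plate change; others are said to be chosen after their values were seen, and some list genes are not reported here. Symbols absent from the table were matched by identifier, and coordinates come from GENCODE M21, which matched 14293 of 14712 genes.

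After adding 1 and taking log2, all 12 libraries entered a limma 3.58.1 fit in R 4.3.3, with moderated variances that follow the mean and are robust to outlying genes (statmod 1.5.0). Mutant effects used 4 cells of tissue by Cre with the set (alleles and day) as a block; tissue comparisons and the difference of effects were blocked by genotype and day. Benjamini-Hochberg adjustment ran over 14712 genes, with a threshold of 0.05. The planned filter, a mean of at least 1, removed 0 genes. Count tests did not apply. The fits were tested on simulated data. Alternatives were other added values, filters, scalings, blocks and sets, plain empirical Bayes, and leaving out each library.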

Additional observations from a re-analysis of the deposited data

How the results depend on the processing

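In growth plate, 5 members passed between mutants and controls. With no replicate block 2 passed, and 2 with a replicate block for each matched pair; the pairing comes from alleles and day, since the labels number no replicates. With 5 added before the logarithm, quantile normalisation, median ratio scaling, the Sox9 sets alone or plain empirical Bayes 3 passed, and 0 from the 6 growth plate libraries. Leaving out 1 library gave 1 to 7. In articular cartilage 1 passed in the Sox9 sets alone, and 0 to 1 without 1 library. Between tissues in controls, 3 passed with 5 added, with plain empirical Bayes or from 6 libraries, 2 with no replicate block, and 2 to 9 without 1 library; in mutants 6 passed in the Sox9 sets alone and 2 to 7 without 1 library. In fits blocked by genotype and day, leaving out a library also takes its partner tissue out of the contrast. The test of the difference in mutant effect passed for 0 members in the 10 settings and 12 fits without 1 library. Over all genes, growth plate calls ranged from 0 to 1601 over settings, articular calls from 2 to 69. Without 1 library they ranged from 658 to 1927 in growth plate and from 6 to 101 in articular cartilage.

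Lyz2 passed in growth plate in 10 of 11 settings and in 12 of 12 fits without 1 library. Cd14 between tissues, and Csf1r between tissues in mutants, passed in all of them. Other scalings and added values turned the signs of small values. Cd14 went to −0.10 and −0.034 in growth plate and to −0.039 and −0.086 in articular cartilage (quantile normalisation and median ratio scaling). For the difference in mutant effect, C1qb went to −0.026 with 5 added and Cd14 to −0.063 after quantile normalisation. In the Sox9 sets alone that difference also turned where it was larger, as from 0.94 to −0.41 for Mrc1. It was then −0.19 for C1qa, −0.81 for C1qb, −0.54 for C1qc, −0.48 for Cd68 and −0.17 for Cd14. For Csf1r it was −0.15, and for Tyrobp −0.84. Without 1 library, values ranged from −0.34 to 0.40 for Cd14 in growth plate, −0.52 to 0.50 for Cd14 in articular cartilage, and −0.0024 to 0.68 for Fcer1g between tissues in controls. For the difference in mutant effect they ranged from −0.51 to 0.58 for Cd14, −0.40 to 0.56 for C1qb, −0.16 to 1.32 for C1qc, −0.20 to 0.87 for Cd68, −0.025 to 1.45 for Mrc1 and −0.51 to 0.93 for Tyrobp. The cause of these changes was not tested, and with an unknown read depth no counting error can be given.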
